A study of Mus musculus with 67 samples.

Results

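The genes described here are the 10 dual-specificity phosphatase genes Dusp1, Dusp2, Dusp3, Dusp4, Dusp5, Dusp6, Dusp7, Dusp10, Dusp14 and Dusp16. They were taken by symbol from the count tables of 3 RNA sequencing experiments on mouse brain microglia, and all 10 were listed in each table, among 24421 genes in the LPS experiment and 24411 in the others. The series set RNA pulled down with tagged ribosomes from whole brain beside RNA of microglia isolated by cell sorting, in 67 libraries. In this RiboTag design, Cre recombinase expressed from Cx3cr1 switches the ribosomal protein Rpl22 to an HA-tagged form wherever recombination took place. An antibody to HA then recovers ribosomes and their RNA from homogenate. Cx3cr1 is also active in macrophages at the borders of the brain, so the tag is not specific to microglia of the parenchyma.

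All mice were C57BL/6J, and all were homozygous for the tag allele, written RLP22HA/HA in the labels. The series' design text says that repeats are single mice, and that an animal gave both sorted cells and a pull-down. In the LPS and digest experiments every mouse, controls included, was CX3CR1CreER/WT and had received 4 doses of 5 mg tamoxifen at 4 to 6 weeks of age. The LPS experiment compared mice injected with PBS (3) or with 2.5 mg/kg lipopolysaccharide (LPS, 4), killed 3 h after LPS. From these came whole-brain pull-downs, pull-downs with a mouse IgG1 in place of anti-HA, sorted cells, and pull-downs made from sorted cells. Sorted cells were gated as Gr1-negative, CD45-intermediate and CD11b-positive. The digest experiment held 3 pull-downs, 4 IgG1 controls, 4 libraries of cells sorted after a 20 min collagenase and DNase digest at 37 °C, and 4 of cells sorted without that digest. A further experiment, on the Cre drivers, held pull-down, IgG1 and input (total homogenate) libraries of CX3CR1CreER/WT mice with tamoxifen (3 mice) or without it (2 mice) and of CX3CR1Cre/WT mice without tamoxifen (3 mice). The age at death was not given in the sources used here.

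Dual-specificity phosphatases of this family remove phosphate from both the threonine and the tyrosine of the activation loop of MAP kinases and so switch those kinases off. Several of them are immediate early genes, transcribed when the MAP kinase pathway is active, which closes a negative feedback loop. In macrophages and microglia, LPS acts through Toll-like receptor 4 to activate p38, JNK and ERK kinases, and Dusp1 is a textbook brake on the cytokine response that follows. By role, Dusp1, Dusp2, Dusp4 and Dusp5 encode inducible nuclear phosphatases, Dusp6 and Dusp7 encode cytoplasmic phosphatases of ERK, Dusp10 and Dusp16 encode phosphatases that prefer JNK and p38, and Dusp3 and Dusp14 encode small atypical members without the MAP kinase-binding domain.

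Promoter sequences of 4 members are shown because 3 of them (Dusp1, Dusp2 and Dusp16) rose at least 4.07-fold after LPS in every preparation other than IgG1, and Dusp6 rose less. Each run holds 300 bases of RefSeq build GRCm38.p6, from 250 bases before the annotated start to 50 after it, read 5′ to 3′ on the gene's strand. They lie at chr17:26508423-26508722 on the minus strand (Dusp1), chr2:127335909-127336208 on the plus strand (Dusp2), chr6:134792579-134792878 on the minus strand (Dusp16) and chr10:99262981-99263280 on the plus strand (Dusp6). Capitals mark the core of the cAMP response element (CRE), TGACG on either strand.
Dusp1: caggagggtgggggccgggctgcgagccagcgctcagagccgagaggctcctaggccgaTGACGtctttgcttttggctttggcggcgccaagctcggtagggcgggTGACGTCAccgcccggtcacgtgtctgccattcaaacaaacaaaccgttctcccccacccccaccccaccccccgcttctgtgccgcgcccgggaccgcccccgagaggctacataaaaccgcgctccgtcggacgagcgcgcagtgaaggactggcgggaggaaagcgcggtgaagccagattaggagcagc
Dusp2: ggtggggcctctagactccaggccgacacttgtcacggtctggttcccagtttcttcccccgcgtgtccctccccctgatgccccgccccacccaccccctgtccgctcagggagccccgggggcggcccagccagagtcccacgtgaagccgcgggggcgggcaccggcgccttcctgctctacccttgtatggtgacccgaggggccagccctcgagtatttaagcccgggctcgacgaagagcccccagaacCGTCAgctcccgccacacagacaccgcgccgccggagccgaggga
Dusp16: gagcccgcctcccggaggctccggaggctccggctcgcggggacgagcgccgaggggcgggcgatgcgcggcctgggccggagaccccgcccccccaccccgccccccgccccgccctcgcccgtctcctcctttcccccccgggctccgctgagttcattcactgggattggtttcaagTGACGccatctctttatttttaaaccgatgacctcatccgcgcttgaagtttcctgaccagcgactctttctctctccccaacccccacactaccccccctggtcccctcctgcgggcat
Dusp6: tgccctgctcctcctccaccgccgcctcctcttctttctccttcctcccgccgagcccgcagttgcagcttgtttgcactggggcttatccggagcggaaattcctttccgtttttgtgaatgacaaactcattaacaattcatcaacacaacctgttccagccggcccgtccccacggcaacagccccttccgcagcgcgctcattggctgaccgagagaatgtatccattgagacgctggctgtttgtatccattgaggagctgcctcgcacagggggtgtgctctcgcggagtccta

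Dusp1 was the only member with the full palindromic element TGACGTCA, at bases 108 to 115 of its window, which begins 143 bases before the start; it had a further core at bases 60 to 64. The full element occurred in 1.79% of the 32851 promoters of this length in the table, and the core in 20.8%. Dusp2 held 1 core just after its start (bases 256 to 260), Dusp16 held 1 at bases 181 to 185, Dusp5 also held 1, and Dusp3, Dusp6, Dusp7, Dusp10 and Dusp14 held none. The AP-1 motif TGANTCA, present in 7.81% of promoters, was in none of the 9 member promoters matched. Loose NF-kB-like and SRE-like letter patterns occurred in 50.8% and 73.3% of all promoters. These matches are a description of letters in a window and name no site of binding. Dusp4 was not matched.

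Library totals ran from 166851 to 3513317 counts in the LPS experiment (28 libraries), 685218 to 1843618 in the digest experiment (15) and 186099 to 2084562 in the driver experiment (24), and the shallowest LPS libraries were pull-downs from sorted cells. Levels are given as CPM (counts scaled to a common library size), with the SD over libraries. They are not corrected for gene length and are compared within a gene. Microglia markers (10 genes summed) lay between 30296 and 38391 CPM in pull-downs and sorted cells of the digest experiment and between 515 and 1489 CPM in IgG1 controls of both. In the LPS experiment they moved with treatment: PBS and LPS libraries ranged from 32215 to 36512 and from 27526 to 36972 CPM in pull-downs, from 38686 to 39733 and from 28668 to 29458 CPM in sorted cells, and from 63031 to 68182 and from 45445 to 55853 CPM in pull-downs from sorted cells. The last 2 pairs did not overlap, and the part of this in the members' LPS changes was not tested. Markers of other cells differed between preparations: 8 neuron markers summed to 2555 to 4780 CPM in pull-downs, 8303 to 13700 CPM in IgG1 controls, 7.63 to 233 CPM in sorted cells and 496 to 1483 CPM in pull-downs from sorted cells, with none of the 8 at 0 in the sorted cells of the LPS experiment. In the same 2 experiments 7 markers of border macrophages summed to 567 to 820 CPM in pull-downs and 1.95 to 20.3 CPM in sorted cells. These are bulk samples, in which fewer cells of a type and less RNA per cell cannot be told apart.

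Of the 10 members, 7 passed the filter on low counts in each experiment: Dusp1, Dusp3, Dusp6, Dusp7, Dusp14 and Dusp16 in each, with Dusp2 in the LPS and digest experiments and Dusp10 in the driver experiment. Dusp4 and Dusp5 passed in none. Tests were edgeR quasi-likelihood F tests over all genes of an experiment. A change was called at a Benjamini-Hochberg adjusted p under 0.05, and log2 fold changes are given with their SE. Compared groups held 3 or 4 libraries, which sets how small a change could be called.

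LPS changed most of the 7 tested phosphatase genes in each preparation other than IgG1. Dusp2, Dusp1 and Dusp16 rose strongly, Dusp6 rose about 2-fold, and Dusp7 fell. In pull-downs, 4 of the 7 tested members rose and 2 fell, where 26.5% of all genes were called. In sorted cells 5 rose and 1 fell (34.5% of all genes called), and in pull-downs from sorted cells 4 rose and 1 fell (25.6%). The median log2 fold change of the tested members was 0.88, 2.26 and 1.22 in these preparations, against -0.03, -0.01 and -0.07 over all genes tested. Dusp2 had 0 to 9 reads in each PBS library and passed the filter through its LPS libraries, so these counts and medians are a description of the tested members only. Dusp14 was among the 5 that rose in sorted cells, on 6 reads against 0, and its value enters that median. The call was lost with DESeq2. In pull-downs Dusp14 was among the 2 that fell, and its level was higher in IgG1 controls than in pull-downs.

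Dusp2 encodes a nuclear phosphatase of activated immune cells and had the largest LPS response of the members. Its level in the PBS pull-downs was 6.57, 4.6 and 3.06 CPM, against 90.9, 173, 114 and 104 CPM after LPS. Every LPS library was far above every PBS library, a log2 fold change of 4.62 ± 0.32 or 24.6-fold. Sorted cells gave 5.5, 8.31 and 5.61 CPM with PBS and 82.1, 180.0, 141 and 101 CPM with LPS (4.29 ± 0.35). In pull-downs from sorted cells the level went from 7.82, 14.8 and 10.1 CPM to 139, 252, 185 and 191 CPM (4.17 ± 0.38). The PBS values were low in all 3 preparations, at no more than 14.8 CPM in any library.

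Dusp1, whose product dephosphorylates p38 and JNK in the nucleus, started from a different level in each preparation. It stood at 13.1, 15.1 and 12.2 CPM in PBS pull-downs and at 82.4, 116, 81.5 and 95.1 CPM after LPS, a log2 fold change of 2.77 ± 0.24 (6.84-fold). In sorted cells it stood at 128, 161 and 143 CPM with PBS and 481, 789.8, 724 and 762 CPM with LPS (2.27 ± 0.19). Treatments did not overlap in either, but the PBS sorted cells were above even the LPS pull-downs. Pull-downs from sorted cells gave 82.1, 66.6 and 80.9 CPM and 542, 628, 388 and 844 CPM (2.97 ± 0.22).

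Dusp16, a phosphatase of JNK and p38, rose in the 3 preparations of microglial RNA. PBS pull-downs held 43.8, 34.2 and 30.6 CPM and LPS pull-downs 129, 173, 126 and 166 CPM (2.03 ± 0.18, 4.07-fold). Sorted cells held 56.8, 52.6 and 47.7 CPM and 274, 275, 228 and 236 CPM (2.26 ± 0.19). The treatments did not overlap in either preparation. The pull-downs from sorted cells ranged from 28.7 to 48.9 CPM with PBS and from 174 to 271 CPM with LPS (2.35 ± 0.23).

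**Figure D1:**
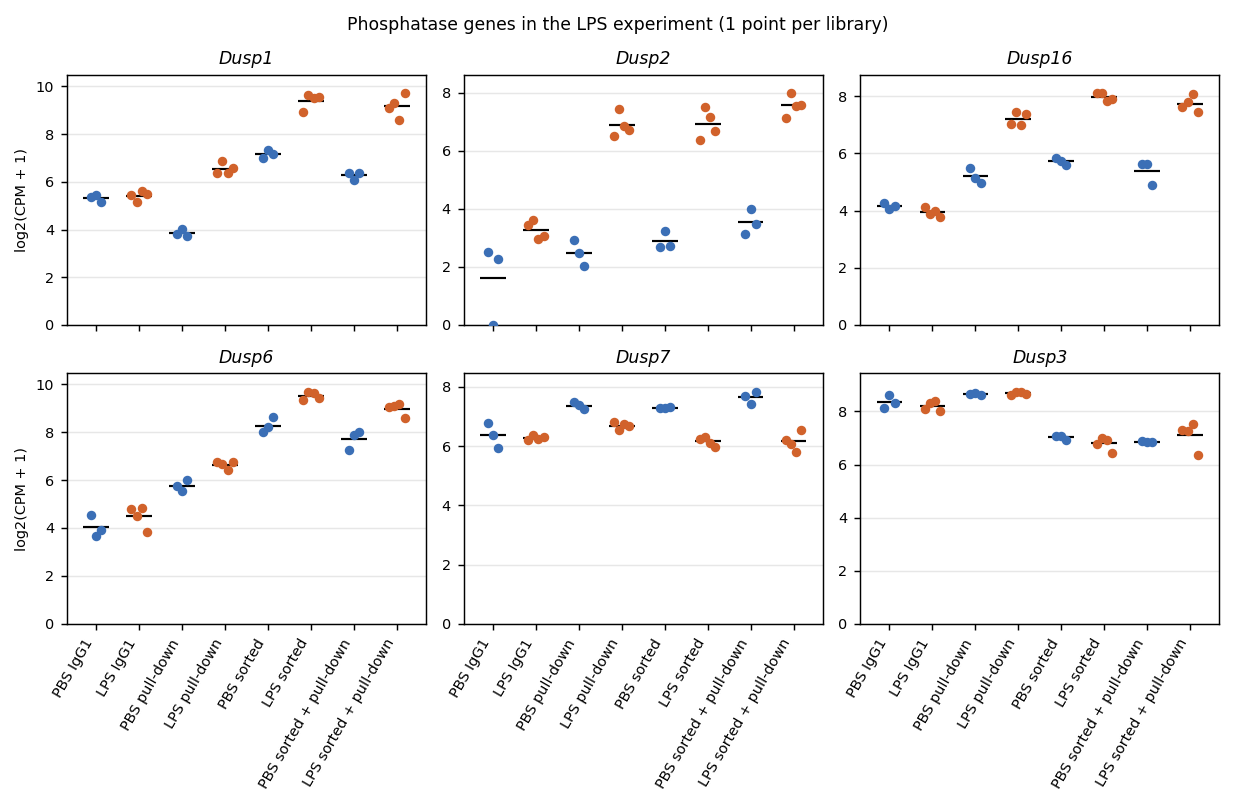
Level of 6 phosphatase genes in each library of the LPS experiment, as log2(CPM + 1), with PBS in blue and LPS in orange; horizontal lines are group means, and the groups hold 3 PBS or 4 LPS libraries. Dusp1, Dusp2 and Dusp16 rise with LPS in the 3 preparations other than IgG1, Dusp7 falls in them, and Dusp3 separates pull-downs from sorted cells instead.

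The cytoplasmic phosphatases of ERK went in opposite directions. Dusp6 rose from 52.6, 46 and 63.4 CPM to 106, 100.0, 84.9 and 107 CPM in pull-downs (0.88 ± 0.20). In sorted cells it rose from 255, 293 and 391 CPM to 651, 813, 800.1 and 687 CPM (1.24 ± 0.18), and in pull-downs from sorted cells by 1.22 ± 0.20. The libraries did not overlap in any of the 3. Dusp7 fell from 177, 165 and 151 CPM to 112, 91.9, 106 and 102 CPM in pull-downs (-0.67 ± 0.16). In sorted cells Dusp7 fell from 157, 155 and 158 CPM to 74.3, 78.3, 68.3 and 61.8 CPM (-1.16 ± 0.18), and in pull-downs from sorted cells its change was -1.42 ± 0.20. These 3 falls were also without overlap.

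The atypical members behaved apart from the rest. Dusp3, a small phosphatase of ERK and JNK, had 404 ± 11.5 CPM (SD, n = 3) in PBS pull-downs and 409.8 ± 16.2 CPM (SD, n = 4) after LPS, a log2 difference of 0.02 ± 0.16 that was not called. Its differences in sorted cells (-0.22 ± 0.19) and in pull-downs from them (0.24 ± 0.22) were not called either. Dusp14, a small atypical phosphatase known as a negative regulator of T cell receptor signalling, fell in pull-downs from 35.8, 34.2 and 22.2 CPM to 21.7, 14.3, 11.5 and 17.3 CPM (-0.88 ± 0.25). Dusp14 was higher in IgG1 controls, at 43.5 to 56 CPM with PBS and 32.5 to 41.7 CPM with LPS. The part of background RNA in its fall was not tested. In sorted cells it was counted 6 times over the 4 LPS libraries and 0 times over the 3 PBS libraries, which is called in edgeR and gives at least 1.74-fold, with the PBS group set to a floor of 3 reads. That call was lost with DESeq2 (adjusted p = 0.0522), with the compared groups fitted alone (0.0584) and on leaving out any PBS sorted library. Neuron markers, at 130 to 233 CPM after LPS and 111 to 185 CPM after PBS in those sorted cells, overlapped between treatments, and their part in these few reads was not tested.

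**Figure D2:**
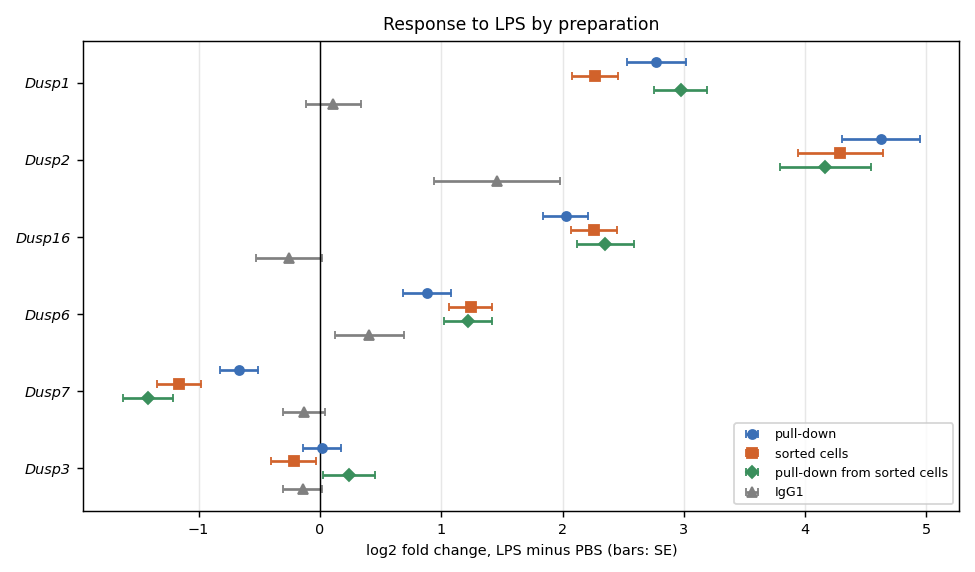
Log2 fold change of LPS against PBS for 6 phosphatase genes (rows), with the SE as bars, in whole-brain pull-downs, sorted cells, pull-downs from sorted cells and IgG1 controls. Dusp2 has the largest change in the 3 preparations of microglial RNA (4.62, 4.29 and 4.17), and the IgG1 values of the other 5 genes plotted lie between -0.26 and 0.41.

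The IgG1 controls give the same comparison in RNA carried along without the anti-HA antibody. By the protocol they had 1 µg of IgG1, against 125 µg of anti-HA in pull-downs. None of the 7 tested members was called there with LPS in edgeR, where 1.15% of all genes were called, and DESeq2 called none of them; 1 member, Dusp2, had an unadjusted p under 0.05. Dusp1 stood at 39.8, 43.1 and 34.2 CPM in PBS and 43.3, 34.5, 47.7 and 43.6 CPM in LPS controls (0.11 ± 0.23). Dusp2 stood at 4.73, 0 and 3.88 CPM and 9.93, 11.2, 6.82 and 7.39 CPM (1.46 ± 0.52, adjusted p = 0.191), with every LPS control above every PBS control. The LPS effect in pull-downs exceeded that in IgG1 controls by a log2 difference of 2.66 ± 0.34 for Dusp1, 3.16 ± 0.76 for Dusp2 and 2.28 ± 0.33 for Dusp16, and these 3 interactions were called, as were 8.58% of all genes. For Dusp2 the interaction fell to 2.64 and lost its call without the first PBS control (adjusted p = 0.134). The interaction was 0.48 ± 0.35 for Dusp6 and -0.54 ± 0.23 for Dusp7, and neither was called. Dusp14 was lower in every LPS control than in every PBS control, and its interaction was not called.

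Whether sorting altered the response to LPS was tested as the difference of the LPS effects. Between sorted cells and pull-downs, Dusp14 alone of the 7 tested members was called (5.01 ± 1.48, adjusted p = 0.0436), against 3.21% of all genes. That value rests on the 6 reads against 0 given above and was lost with DESeq2 (adjusted p = 0.0537) and in 11 of the 14 fits that left out 1 library, each PBS and LPS sorted library among them. For the strongly induced members the difference was -0.51 ± 0.31 (Dusp1), -0.33 ± 0.60 (Dusp2) and 0.23 ± 0.27 (Dusp16), and for Dusp7 it was -0.49 ± 0.24. None of these was called, and the SEs of 0.24 to 0.60 set how small a difference could be. Between sorted cells and the pull-downs made from them, no member was called in edgeR (0% of all genes) or DESeq2, and 2 had an unadjusted p under 0.05; the Dusp1 difference was -0.71 ± 0.28.

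The next comparison sets sorted cells against whole-brain pull-downs under the same treatment. Dusp1 and Dusp6 were much higher in sorted cells than in pull-downs, Dusp3 and Dusp14 were lower, and Dusp7 passed the test after LPS but not with PBS; the test of that difference, the interaction given above, was not called (adjusted p = 0.312). In PBS mice 5 of the 7 tested members were called (3 higher and 2 lower) and after LPS 6 were (3 higher and 3 lower). These shares stand against 71.9% and 76.1% of all genes called, and the members' shares are near that background. Dusp14 passed the filter on low counts through its pull-downs and IgG1 controls, so these counts are a description only.

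For Dusp1, the sorted cells of PBS mice lay 10.5-fold above the pull-downs (3.39 ± 0.25), and those of LPS mice 7.39-fold above (2.89 ± 0.17). Dusp6, with the values given above, differed by 2.53 ± 0.21 with PBS and 2.89 ± 0.17 with LPS. No library of sorted cells overlapped a pull-down for either gene. Dusp2 did not share this behaviour: its libraries overlapped between sorted cells and pull-downs, and the differences were 0.41 ± 0.58 with PBS and 0.07 ± 0.19 with LPS. With no filter on low counts the latter value turned to -0.48 (adjusted p = 0.0124). Dusp16 was modestly higher in sorted cells, by 0.54 ± 0.22 with PBS and 0.77 ± 0.15 with LPS. The PBS call was lost with DESeq2 (adjusted p = 0.0516) and on leaving out the second or the third PBS pull-down or the first sorted PBS library, and both calls were lost with no filter on low counts. Dusp7 differed by -0.07 ± 0.17 with PBS, not called, and was lower at a log2 fold change of -0.56 ± 0.17 with LPS, a call lost with total-count scaling (adjusted p = 0.0924).

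Dusp3 stood at 403, 416 and 393 CPM in PBS pull-downs and at 134, 133 and 121 CPM in PBS sorted cells (-1.64 ± 0.18). With LPS the difference was -1.88 ± 0.16. IgG1 controls held 282, 389 and 315 CPM of Dusp3 with PBS, above every sorted library. Neuron markers in PBS libraries ranged from 111 to 185 CPM in sorted cells and from 4076 to 4466 CPM in pull-downs. Dusp14 had 130 reads over the PBS pull-downs and 0 over the PBS sorted cells, at least 26.1-fold lower against a floor of 3 reads, and was lower at a log2 fold change of -2.94 ± 0.46 with LPS. The part of neuronal and other RNA in these differences was not tested.

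In pull-downs made from sorted cells, Dusp1, Dusp3 and Dusp6 lay nearer to sorted cells than to whole-brain pull-downs. Against sorted cells, 3 of 7 tested members were called with PBS (1 higher and 2 lower, 31.9% of all genes called). Dusp1 was lower at a log2 fold change of -0.88 ± 0.23 and so was Dusp6 (-0.54 ± 0.20), the latter with overlapping libraries and a call lost with DESeq2 (adjusted p = 0.0986). Dusp14 had 5 reads against 0, at least 3.06-fold higher. Neuron markers ranged in these PBS libraries from 722 to 1354 CPM in pull-downs from sorted cells and from 111 to 185 CPM in sorted cells, and their part was not tested. Leaving out the first pull-down from PBS sorted cells left Dusp1 alone called. With LPS, 2 members were called (1 higher and 1 lower, again 31.9%): Dusp2 (0.55 ± 0.22, overlapping, lost with DESeq2 at adjusted p = 0.0508) and Dusp6 (-0.57 ± 0.17, lost without the fourth LPS pull-down from sorted cells). Against whole-brain pull-downs, 4 members were called with PBS (2 higher and 2 lower, 53.7%) and 7 with LPS (4 higher and 3 lower, 58.1%). Dusp1 was higher by 2.51 ± 0.29 and 2.71 ± 0.17 in these, and Dusp6 by 1.99 ± 0.22 and 2.32 ± 0.18. The smallest LPS calls here, Dusp7 (-0.44 ± 0.19, lost with DESeq2 at adjusted p = 0.0841) and Dusp16 (0.48 ± 0.16, 0.04 with no filter on low counts), moved with the settings.

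**Figure D3:**
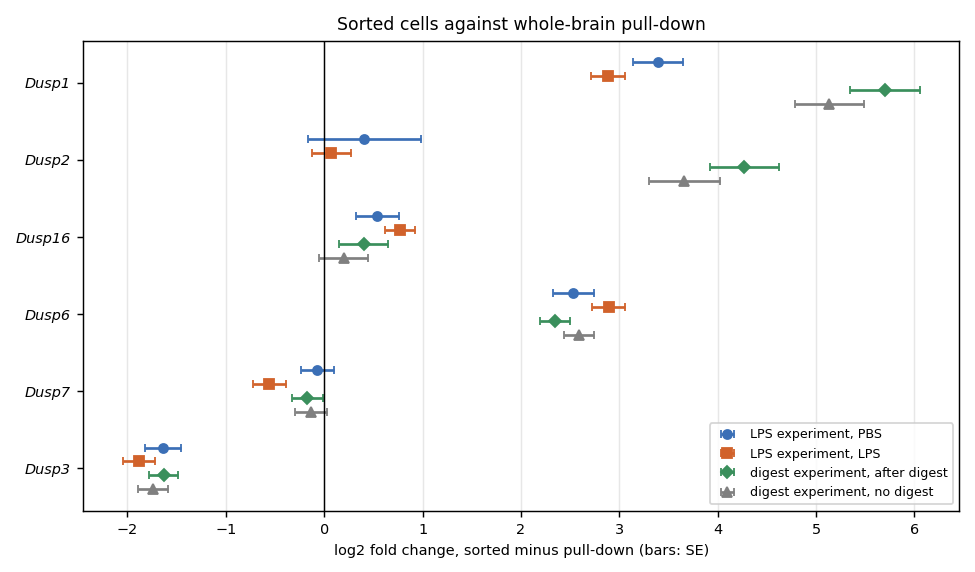
Log2 fold change of sorted cells against whole-brain pull-down for 6 phosphatase genes (rows), with the SE as bars, for PBS and LPS mice of the LPS experiment and for cells sorted after or without the digest. Dusp6 and Dusp3 have similar values in all 4 comparisons, while Dusp2 lies near 0 in the LPS experiment and at 4.27 and 3.66 in the digest experiment.

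In the digest experiment, sorted cells of mice for which the labels name no injection again carried more Dusp1 and Dusp6 RNA than pull-downs, and here also more Dusp2. After the digest, 5 of 7 tested members were called (3 higher and 2 lower), and without it 5 as well (3 higher and 2 lower); 72.8% of all genes were called in each. Both comparisons share their pull-downs. Dusp2 passed the filter on low counts through its sorted libraries, and Dusp14 through its pull-downs and IgG1 controls. The counts of members called are thus a description of the tested members only. Dusp1 stood at 18.2, 35.5 and 37.7 CPM in pull-downs, 659.9, 1550.2, 1089 and 1049 CPM in cells sorted without the digest and 1473, 1706, 1683 and 1552 CPM in cells sorted after it. Even the lowest sorted library was over 10 times the highest pull-down, and the log2 fold changes were 5.14 ± 0.35 without the digest and 5.70 ± 0.36 after it. Dusp2 stood at 2.27, 3.11 and 7.02 CPM in pull-downs, 38.4, 51.1, 51.8 and 76.8 CPM without the digest and 122, 82.4, 57.3 and 73.4 CPM after it. These sorted cells lay 3.66 ± 0.36 and 4.27 ± 0.35 above the pull-downs on the log2 scale.

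Dusp6 ranged from 44 to 67.8 CPM in pull-downs, from 314 to 379 CPM without the digest and from 269 to 311 CPM after it (2.59 ± 0.15 and 2.35 ± 0.15). Dusp3 was lower in sorted cells, at log2 fold changes of -1.74 ± 0.15 and -1.63 ± 0.15. Dusp14 had 139 reads over the pull-downs, 0 over the cells sorted without the digest (at least 51.4-fold lower) and 2 over those sorted after it, a ratio of 71.4 with an exact 95% interval of 19.4 to 595. Both low genes were thus low in either sort. Dusp16, which LPS raised, ranged from 22.3 to 26.1 CPM in pull-downs and from 20.4 to 39.2 CPM after the digest and was not called (0.40 ± 0.25, and 0.20 ± 0.25 without the digest). With total-count scaling the difference after the digest was 0.57 and was called (adjusted p = 0.0405). Dusp7 did not differ beyond its error (-0.17 ± 0.16 and -0.13 ± 0.16).

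**Figure D4:**
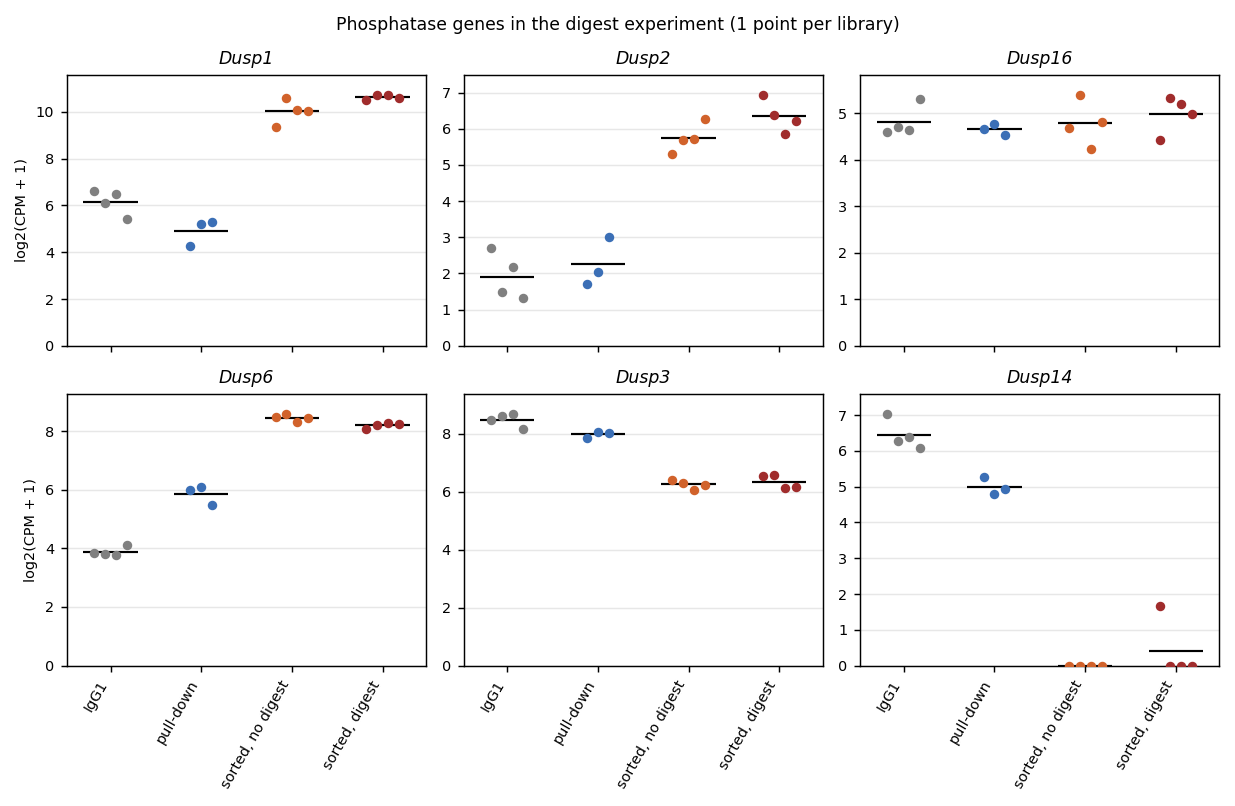
Level of 6 phosphatase genes in each library of the digest experiment, as log2(CPM + 1), for IgG1 controls (4), pull-downs (3), cells sorted without the digest (4) and cells sorted after it (4); horizontal lines are group means. Dusp1, Dusp2 and Dusp6 are higher in both kinds of sorted cells than in pull-downs, Dusp3 is lower, and Dusp14 is at 0 in 7 of the 8 sorted libraries.

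The digest itself made no called difference to any of the 7 tested members in edgeR, nor in DESeq2, and 2 of them, Dusp1 and Dusp2, had an unadjusted p under 0.05. Of all genes, 0.139% were called (16 of 11529). The Dusp1 difference was 0.56 ± 0.24, with libraries that overlapped because 1 of the 4 without the digest reached 1550.2 CPM. Dusp2 differed by 0.61 ± 0.22 (adjusted p = 0.811), also with overlap. When the 8 sorted libraries were fitted alone, the Dusp2 difference was 0.60 and was called (adjusted p = 0.00924). The differences were -0.24 ± 0.12 for Dusp6, 0.20 ± 0.23 for Dusp16 and -0.04 ± 0.15 for Dusp7. Markers of neutrophils and monocytes (8 genes summed, Ly6g and Retnlg at 0) ranged from 5.72 to 236 CPM after the digest and from 7.51 to 381 CPM without it, and their part in these values was not tested.

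Set side by side, sorted cells of the digest experiment had 1603 ± 110.4 CPM (SD, n = 4) of Dusp1 after the digest and 1087 ± 364 CPM (SD, n = 4) without it, and those of PBS mice in the LPS experiment had 144 ± 16.1 CPM (SD, n = 3). For Dusp2 these values were 83.8 ± 27.6 CPM, 54.5 ± 16.1 CPM and 6.47 ± 1.59 CPM. For Dusp6 the values after the digest and in PBS mice were 295 ± 18.5 CPM and 313 ± 70.2 CPM, and for Dusp16 31.4 ± 8.18 CPM and 52.4 ± 4.6 CPM. Sorted cells of LPS mice had 689 ± 141 CPM of Dusp1, 126 ± 43.5 CPM of Dusp2 and 253 ± 24.5 CPM of Dusp16 (SD, n = 4). The general protocol names the digest, but no label of a sorted library in the LPS experiment says whether it was used. These values come from tables scaled separately, and the experiments were not tested against each other.

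Pull-downs were also set against inputs and against their IgG1 controls, which by the protocol had less antibody. In PBS mice 5 of 7 tested members were called (3 higher in pull-downs and 2 lower, 65% of all genes called), in LPS mice 7 (6 higher and 1 lower, 73%) and in the digest experiment 5 (2 higher and 3 lower, 74.5%). Dusp6 was enriched in the pull-down each time, by 1.70 ± 0.26, 2.18 ± 0.21 and 2.09 ± 0.20. Dusp1 changed side with treatment: it was lower in pull-downs than in IgG1 controls in PBS mice (-1.51 ± 0.28) and in the digest experiment (-1.29 ± 0.35), and higher after LPS (1.15 ± 0.19). Dusp16 was higher in pull-downs by 1.07 ± 0.25 with PBS and 3.35 ± 0.20 with LPS. The PBS value was not called in DESeq2 (adjusted p = 0.0599). In the digest experiment Dusp16 was not called, with mean levels of 24.2 CPM in pull-downs and 27.7 CPM in IgG1 controls. Nor was Dusp16 called against IgG1 in tamoxifen-treated mice of the driver experiment (means of 24.8 and 24.9 CPM). Dusp2 was higher by 3.72 ± 0.27 with LPS and not called with PBS (0.55 ± 0.61). Dusp14 was lower in pull-downs in all 3 (log2 fold changes of -0.66 ± 0.24, -1.10 ± 0.23 and -1.52 ± 0.23). The PBS call of Dusp14 was lost without the first IgG1 control or the third pull-down. After LPS, Dusp7 (0.43 ± 0.16) and Dusp3 (0.46 ± 0.15) were called higher, but with DESeq2 size factors they turned to -0.24 and -0.20, so no direction is given for them after LPS. Dusp7 was called higher in pull-downs with PBS (means of 164 against 83.7 CPM) and in the digest experiment (125 against 49 CPM). In the digest experiment Dusp3 was lower (-0.52 ± 0.14), a call lost when the compared groups were fitted alone (-0.12).

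In the driver experiment, tamoxifen-treated CX3CR1CreER/WT mice had 5 of 7 tested members called between pull-down and input (2 higher and 3 lower, 64.2% of all genes called). Dusp1 stood at 93.9, 91.7 and 149 CPM in the inputs and 20.5, 25.3 and 23.9 CPM in the pull-downs (-2.27 ± 0.25). Dusp14 stood at 144, 160.2 and 128 CPM and 33.4, 46.1 and 56.5 CPM (-1.65 ± 0.20). For both genes every pull-down was below every input. Dusp6 (1.12 ± 0.31) and Dusp7 (0.84 ± 0.32) were higher in the pull-downs, and both calls were lost with total-count scaling (0.66 and 0.36). Dusp10 was lower, on 3 against 26 reads, a ratio of 4.1 with an exact 95% interval of 1.26 to 21.2, and was not called in DESeq2 (adjusted p = 0.0751). Against IgG1, 4 members were called (2 higher and 2 lower, 66.1%), Dusp1 (-0.85 ± 0.27) and Dusp14 (-0.55 ± 0.21) lower and Dusp6 (1.15 ± 0.32) and Dusp7 (0.89 ± 0.33) higher. The calls of Dusp6 and Dusp7 were again lost with total-count scaling. In CX3CR1Cre/WT mice Dusp1 alone of the 7 was called between pull-down and input (-0.60 ± 0.21, 34.9% of all genes called). That call was lost without the first or second pull-down or the third input. Microglia markers summed to 1574 to 3763 CPM in the CX3CR1Cre/WT pull-downs, against 40342 to 50769 CPM in pull-downs of tamoxifen-treated CX3CR1CreER/WT mice. Neuron markers summed to 13772 to 17896 CPM in these CX3CR1Cre/WT pull-downs and 10006 to 12058 CPM in their inputs. The part of this in the Dusp1 value was not tested. Mice without tamoxifen had 2 libraries a group, with 186099 and 219521 counts in the pull-downs, and were not compared; their pull-downs held 60.3 and 71.9 CPM of Dusp1.

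Dusp4, Dusp5 and Dusp10 were rare in microglial RNA at this depth. Dusp5, a nuclear phosphatase of ERK, had 0 reads in the whole LPS experiment, 1 read in an IgG1 control of the digest experiment and 2 in inputs of the driver experiment. Over the 4 LPS sorted libraries together, 0 of 2943668 counts allows a level of up to 1.02 CPM. Dusp4 had 1 read over all sorted cells of the LPS experiment and 9 over the LPS pull-downs. Its inputs held 4.22 ± 0.615 CPM (SD, n = 3) in tamoxifen-treated mice, so it was detected in whole brain and scarcely in sorted cells. Dusp10, a phosphatase of p38 and JNK, had mean levels of 3.98 CPM in PBS pull-downs and 4.79 CPM in LPS pull-downs, and of 1.85 and 2.41 CPM in sorted cells. These 3 genes were not tested for LPS. In IgG1 controls Dusp4 had 3 reads with LPS and 13 with PBS, a ratio of 5.52 with an exact 95% interval of 1.52 to 30.2 that covers counting error only. Dusp10 ranged there from 4.25 to 9.61 CPM with LPS and from 1.55 to 4.05 CPM with PBS, without overlap.

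Other genes of the pathway, and other genes with a Dusp symbol, were counted for the same comparisons, in 6 lists of 61 genes in all. Of these, 49 were tested in the LPS experiment. With LPS, 8 rose and 6 fell in pull-downs, 9 rose and 9 fell in sorted cells, and 8 rose and 9 fell in pull-downs from sorted cells, against the shares of all genes given above. The strongest rises were in activating kinases. Map3k8 (Tpl2, which activates the ERK arm downstream of Toll-like receptors) rose by 3.44 ± 0.30 in pull-downs and 2.80 ± 0.20 in sorted cells, and was 1 of 2 called among 11 MAP kinase kinase kinases in pull-downs. Map2k3, a p38-activating kinase, rose by 2.40 ± 0.19 and 1.75 ± 0.21. In the list of MAP kinases, 2 of 9 fell and none rose in pull-downs, led by Mapk14 (p38 alpha) at -1.66 ± 0.18, and -2.17 ± 0.20 in sorted cells. Among 10 kinases activated by MAP kinases, 3 rose and 3 fell in pull-downs; Mapkapk2, a p38 substrate that stabilises cytokine messages, rose by 1.99 ± 0.16 and Rps6ka1 fell (-0.69 ± 0.15). Of the other feedback inhibitors, Spred1 rose by 0.80 ± 0.17 and was the 1 called of 4 Sprouty and Spred genes tested in pull-downs. Of 9 other Dusp genes tested there, listed by symbol and not by action on MAP kinases, Dusp11 rose (1.12 ± 0.19) and Dusp22 fell (-1.32 ± 0.21). In IgG1 controls Mapkapk2 alone of the 49 was called (0.69 ± 0.18), and DESeq2 called 1.

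Between PBS sorted cells and pull-downs 35 of the 49 list genes were called, against 71.9% of all genes, so the lists as a whole were near the background. In PBS sorted cells 7 of 11 MAP kinase kinase kinases were higher and 2 lower than in pull-downs, among them Map3k8 (3.73 ± 0.32) and Map3k2 (3.68 ± 0.25). Of the 9 MAP kinases tested 1 was higher and 5 lower, led by Mapk10, the neuronal JNK (-4.32 ± 0.36). Of 9 other Dusp genes 2 were higher and 5 lower, with Dusp8 (-3.60 ± 0.28) and Dusp26 (-3.25 ± 0.32) far lower. Neuron markers were lower in the same libraries, and their part was not tested. After the digest 36 of 53 list genes were called, against 72.8% of all genes. The counts there were 7 higher and 2 lower of 11 MAP kinase kinase kinases and 1 higher and 5 lower of 9 MAP kinases, with Map3k8 at 4.29 ± 0.31. Between cells sorted after and without the digest, none of 53 tested list genes was called in edgeR or DESeq2, and 3 had an unadjusted p under 0.05.

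The genes most like each member were found by Pearson correlation of group means on the log2(CPM + 1) scale, each centred within its experiment, over the 12 groups of the LPS and digest experiments and 10289 genes. They share libraries and depth, so the values are a description. Dusp1 was most like Nfkbiz, an inducible regulator of NF-kB targets (r = 0.973), Klf4 (0.967) and Gramd1a (0.962). Dusp2 was most like Mat2a (0.983), Socs3, an inducible inhibitor of cytokine signalling (0.976), and Csrnp1 (0.973). Dusp6 was most like Atp7a (0.994), Picalm (0.994) and Gna13 (0.993). Dusp5 was too low for this measure.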

How the data were processed

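The authors deposited 3 tables of whole-number read counts per gene symbol, 1 for each experiment. Per the submitters' processing notes, mm9, HISAT 0.1.5, HOMER and bcl2fastq were used; their settings, and whether counting used strand, are not given in the sources used here, so reads of overlapping genes cannot be told apart. The members and gene lists were chosen with earlier results of these data known. Members were matched by symbol, and samples were grouped by GEO's labels. Genes passing filterByExpr (minimum count 10) were fitted once per table with edgeR 4.0.16 in R 4.3.3 (TMM scaling, robust quasi-likelihood F test, Benjamini-Hochberg adjustment over the 11444, 11529 or 11868 genes tested, threshold 0.05). Fits were tested on simulated data in which only well-counted genes changed, which does not cover members with few reads. CPM use the TMM-scaled totals. Genes with few reads have exact 95% binomial ratio intervals or a floor of 3 reads, which cover counting error only. No 2 libraries of a group were identical. In the LPS experiment the titles number libraries 1 to 7 across treatments in each preparation, and the design text says that sorting and pull-down used the same animal. For comparisons between preparations, same-numbered libraries of a treatment were therefore taken as paired in the fit with the number as a block. Correlations of their deviations from group means were -0.048 to 0.13 over 42 pairs within a treatment and -0.13 to 0.11 over 48 pairs between treatments. In the other experiments, and between PBS and LPS mice, libraries share only a number by their labels. For LPS against PBS and for the digest experiment, the block was the replicate number alone. Between PBS and LPS that number joins different mice, and in the digest experiment no label ties it to an animal. Between driver groups of different mice, r ran from -0.16 to 0.51 over 63 same-numbered pairs. Inputs of CX3CR1Cre/WT and tamoxifen-treated CX3CR1CreER/WT mice had r = 0.34 for number 1, 0.046 for number 2 and 0.51 for number 3. Their inputs with number 3 also had the most Dusp1 of each group (106 and 149 CPM). The cause, and its part in the Dusp1 differences from input, was not tested. Other fits used DESeq2 1.42.0, other scalings, no filter, the compared groups alone, a replicate block and each library left out. All 10 members are named; from each list at most the 3 called genes with the smallest p per comparison could be named. The protein sequences and the Dusp4 promoter were not used here. Promoter coordinates come from RefSeq's GRCm38.p6, which is not the authors' build.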

Additional observations from a re-analysis of the deposited data

Results flagged for a closer look

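A single library stood far from the other 3 of its group for 3 values. These were among 49 sets of 4 values looked at, each set being 1 tested member in 1 group of 4 libraries. Chance flags about 1 in 20 such sets. The fourth IgG1 control, the shallowest library of the digest experiment, had 16.2 CPM of Dusp6 (11 reads), against 12.7 to 13.3 CPM in the others. It also had 38.4 CPM of Dusp16, against 23.4 to 25.0 CPM. The first library of cells sorted after the digest had 2.14 CPM of Dusp14 (2 reads), with 0 in the others.

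The response to LPS was called different between preparations for 4 members by the interaction test in edgeR. The log2 difference of the LPS effects between sorted cells and pull-downs was 5.01 for Dusp14, on few reads. This call was lost with DESeq2, with no filter and with the compared groups alone. Between pull-downs and IgG1 controls the difference was 2.66 for Dusp1, 3.16 for Dusp2 and 2.28 for Dusp16. The Dusp2 call was lost without the first PBS control.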

How the results depend on the processing

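Of the 154 member fold changes, 149 kept their direction and side of the threshold with DESeq2 size factors, 142 with total-count scaling, 142 with the DESeq2 test, 143 with no filter and 148 with the compared groups fitted alone; a value called in neither fit was counted as kept. The larger moves in counts of members called are listed here. Smaller moves, such as single lost calls given with the genes above, are left out. For the LPS effect of sorted cells minus pull-downs, 1 became 0 with no filter, with DESeq2 and with the compared groups alone, and 0 to 1 with 1 library left out. Between pull-downs from sorted cells and sorted cells, the count in PBS mice was 1 to 3 with 1 library left out, and in LPS mice 2 became 1 with DESeq2 (1 to 2 with 1 library left out). The digest comparison went from 0 to 1 with the compared groups alone, the inducible driver's pull-down against IgG1 from 4 to 2 with total-count scaling, and the constitutive driver's pull-down against input from 1 to 0 with no filter (0 to 2 with 1 library left out). The cause was not tested.

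Reversals were as follows. In LPS pull-downs against IgG1, Dusp7 went from 0.43 to -0.24 with DESeq2 size factors, -0.14 with total-count scaling and -0.23 with the DESeq2 test, and Dusp3 from 0.46 to -0.20, -0.11 and -0.20; DESeq2 size factors moved the median of all genes there from 0.02 to -0.64. In LPS sorted cells against pull-downs, Dusp2 went from 0.07 to -0.48 with no filter. The cause was not tested.

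The replicate block changed no member's call in any of the 22 comparisons. In 8 of them, those of LPS against PBS and of the digest experiment, it was the number alone, which no label ties to a shared animal. With the replicate block, the 3 and 2 calls between pull-downs from sorted cells and sorted cells stayed 3 and 2. The genes called for the LPS effect of sorted cells minus pull-downs went from 367 to 439. Calls of Map2k4 (LPS, sorted cells), Map2k6 (sorted without digest against pull-down) and Rps6ka1 (constitutive driver) were lost under it. Without a filter, LPS calls in IgG1 controls went from 132 to 213, and to 87 without the second LPS control. Digest calls went from 16 to 25 with no filter or DESeq2 and 60 with the compared groups alone. LPS effects of sorted cells against pull-downs from them went from 0 to 4, 4 and 5 with total-count scaling, DESeq2 and the compared groups alone. LPS calls in pull-downs were 1779 higher and 1258 lower, and 1470 and 1799 with DESeq2 size factors. Pull-downs from sorted cells, at 166851 counts at the least, limit what could be called in members with few reads.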
